A study of Mus musculus with 48 samples.

Results

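The 5' fragments of the glutamate transfer RNA with anticodon CTC (tRNA-GluCTC) were examined in the trigeminal and superior cervical ganglia of mice after lipopolysaccharide (LPS) or saline. They were the tRNA fragments (tRFs) that the deposited annotation lists as 5'-half or 5'-tRF and places only in tRNA-GluCTC genes. Of 60 such sequences, the 38 with 10 or more counts summed over the 48 libraries were kept, out of 13007 tRFs in all. The 17 sequences annotated as 5'-halves were 32 to 36 bases long, and the 21 annotated as 5'-tRFs were 30 to 46 bases long. Together they held 8605218 of 12563678 tRF counts, which is 68.5%. Members were thus chosen in part by their summed count, so their abundance over all libraries is a description and was not tested.

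Male and female Balb/c mice (24 of each sex, 2.5 months old) received 2.5 mg/kg LPS of Escherichia coli in 0.2 mL saline, or saline alone, into the peritoneal cavity. LPS is a bacterial outer-membrane component that triggers innate immune signalling. The trigeminal ganglion (TG) holds the sensory neurons of the face, and the superior cervical ganglion (SCG) holds sympathetic neurons of the head and neck. Each ganglion was taken 4 h, 24 h or 7 d after LPS or saline, which gives 12 groups of 4 libraries, 2 female and 2 male. Both ganglia of a kind from 1 mouse were pooled, and the labels do not say which TG and SCG libraries came from the same mouse. The libraries are bulk small RNA from whole ganglia, so fewer cells of a type and less RNA per cell cannot be told apart.

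Transfer RNAs carry amino acids to the ribosome, and stress can lead nucleases such as angiogenin to cut them in the anticodon loop. The cut leaves a 5'-half and a 3'-half. Such 5'-halves, those of glutamate and glycine tRNAs in particular, are abundant in many mammalian tissues and fluids, and 5' fragments of tRNA-GluCTC are known to be raised by respiratory syncytial virus in human airway cells. Where a fragment ends shows where the tRNA was cut or trimmed.

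The 6 most abundant sequences share the same first base and differ only in where they stop, at 31, 32, 33, 34, 35 or 36 bases counted from the 5' end of the tRNA, and the results turn on that 3' end. The anticodon CTC takes positions 34 to 36. The 31-base 5'-tRF stopped just before the anticodon loop (positions 32 to 38), and the 32-base to 35-base 5'-halves stopped inside it. The 33-base 5'-half ended right before the anticodon, and the 36-base fragment, annotated as a 5'-tRF, held the whole anticodon. The class name 5'-tRF thus covers fragments both shorter and longer than the 5'-halves, and results are given here by length. Longer 5'-tRFs, of 37 to 46 bases, ran on through the loop. In 20 sequences 1 further base stood before the first base of the tRNA, and the most abundant of them, a 33-base 5'-half with a C before it, is called the C-extended 5'-half. All 36 of these sequences were annotated to 8 tRNA-GluCTC genes of human chromosomes 1 and 6. The deposited locations are human, since 346 of the 13007 tRFs have one on chromosomes 20 to 22, which the mouse lacks, so no mouse position is given. The remaining 2 sequences, of 33 and 30 bases, are variants annotated to 1 other human gene and had 19 and 13 counts.

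The libraries held 61218 to 1511191 tRF counts (median 204269), with 166532 as the TG median and 248290 as the SCG median. The highest, SCG 4 h LPS replicate 1, is far from the next and carried the smallest scaling factor, 0.271. The sensory-neuron miRNAs miR-96-5p, miR-183-5p and miR-182-5p summed to 57814 to 86816 CPM (median 74023) in TG libraries, against 218 to 21699 CPM (median 1199.9) in SCG libraries. The highest SCG value belonged to SCG 24 h saline replicate 1 and lay below every TG value. The miRNAs known to be induced in inflammation (miR-155-5p, miR-146a-5p and miR-21a-5p) summed to 12903 to 40726 CPM (median 22391) in SCG after LPS, against 5854 to 11858 CPM (median 6979) after saline, and to 7358 to 21828 CPM (median 11277) in TG after LPS, against 5156 to 8251 CPM (median 6939) after saline. SCG 4 h saline replicate 1 stood apart in muscle miR-1a-3p, at 77056 CPM, and SCG 7 d LPS replicate 2 in leukocyte miR-142a-3p, at 3273 CPM, where the medians over all libraries were 4648 and 60.02 CPM. SCG 7 d LPS replicate 2 also held 33807 CPM of miR-1a-3p. Of the neuron miRNAs, it had the lowest miR-9-5p and miR-124-3p of all libraries, at 229 and 3.56 CPM (medians 10838 and 225). Its miR-128-3p, at 35469 CPM, was the highest of all libraries (median 13446). The remaining marker lists had these levels. Muscle miRNAs summed to 4182 to 15635 CPM (median 6099) in TG, against 186 to 83998 CPM (median 665) in SCG, neuron miRNAs to 24920.4 to 56199 CPM (median 29368) in TG, against 8059 to 35702 CPM (median 10745) in SCG, and red-cell miRNAs to 945 to 5902 CPM (median 1945) in TG, against 463 to 2538 CPM (median 852) in SCG. The highest SCG sum of neuron miRNAs was that of SCG 7 d LPS replicate 2. In TG the 7 d saline libraries summed to 29501 to 56199 CPM of neuron miRNAs, at a mean of 47923 ± 12441 (SD, n = 4). The other TG groups had means of 26812 to 31569 CPM. The 7 d saline group also had the lowest mean of sensory-neuron miRNAs in TG, at 63615 ± 7517 CPM. Leukocyte miRNAs summed to 139 to 373 CPM (median 234) in TG, against 137 to 4531 CPM (median 204) in SCG, and epithelium and pituitary miRNAs to 124 to 5599 CPM (median 656) in TG, against 254 to 10261 CPM (median 649) in SCG. The part of depth and of these marker levels in the TG against SCG and LPS results was not tested.

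GluCTC 5' fragments made up a large part of the tRF counts in every library. Their share ran from 48.97% (95% Wilson interval 48.8% to 49.1%) in SCG 4 h LPS replicate 4 to 81.02% (95% Wilson interval 80.9% to 81.1%) in SCG 24 h saline replicate 2. In TG the share was 67.9% ± 5.70 after LPS and 66.2% ± 5.36 after saline, and in SCG it was 66.6% ± 8.99 after LPS and 67.9% ± 6.39 after saline (SD, n = 12 each). The group means lay between 64.2% and 71.3%, and the libraries of the ganglia and of the treatments overlapped. Against this, the 65 GluTTC 5' fragments held 2.06% of the tRF counts, the 73 glycine ones 4.32% and the 75 lysine ones 4.30%.

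Little was counted from the rest of the same tRNA. Of all sequences placed only in tRNA-GluCTC, 8 were 3'-halves with 572 counts and 22 were 3'-tRFs with 618 counts. A further 6 3'-halves, with 2088 counts, and 21 3'-tRFs, with 3114 counts, are shared between GluCTC and GluTTC genes. Internal fragments held 74592 counts. The library kit joins adapters to free 3' hydroxyl and 5' phosphate ends; whether 5' and 3' pieces differ in their ends was not tested, and the counts do not give their molar ratio.

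The 6 leading sequences held 99.7% of the GluCTC 5' counts. The 33-base 5'-half led with 3882562 counts (45.1%), followed by the 31-base 5'-tRF with 2225715 (25.9%), the 34-base 5'-half with 1000291 (11.6%), the 35-base 5'-half with 780670 (9.07%), the 32-base 5'-half with 405140 (4.71%) and the 36-base 5'-tRF with 286989 (3.34%). Each of them was counted in all 48 libraries, and the fewest counts of any in a library were 361, of the 36-base fragment. Next came the 39-base fragment with 16024 counts and the 42-base one with 2358. The sequences with 1 extra base before the tRNA added 1735 counts (0.0202%), of which 1259 had a C and 346 a T.

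The mix of lengths differed between the ganglia, and this needs no scaling between libraries. The sample titles number every SCG library before every TG library, so ganglion and library order cannot be told apart. The 31-base fragment was 7.21% ± 5.16 of the GluCTC 5' counts in TG after LPS and 8.42% ± 2.99 in TG after saline, against 33.6% ± 14.2 in SCG after LPS and 27.9% ± 12.1 in SCG after saline (SD, n = 12 each). Its lowest library in SCG, SCG 7 d saline replicate 4, was at 13.5%, and its highest in TG, TG 7 d LPS replicate 4, at 20.4%, so the ranges overlapped. The 33-base 5'-half made up 59.4% ± 4.57 in TG after LPS and 53.7% ± 4.46 in TG after saline, against 39.5% ± 7.23 and 42.1% ± 6.09 in SCG after LPS and after saline.

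The 36-base fragment was 7.69% ± 2.86 in TG after LPS and 7.94% ± 2.76 in TG after saline, against 0.930% ± 0.609 in SCG after LPS and 1.43% ± 1.26 in SCG after saline (SD, n = 12 each). All sequences annotated as 5'-halves made up 84.6% ± 3.77 in TG after LPS and 83.2% ± 2.75 after saline, and 65.3% ± 13.8 in SCG after LPS and 70.4% ± 11.5 after saline. The mean length of a counted GluCTC 5' fragment was 33.4 ± 0.234 bases in TG after LPS and 33.5 ± 0.189 in TG after saline, against 32.6 ± 0.393 and 32.8 ± 0.404 in SCG after LPS and after saline. These shares sum to 100%, so a rise of 1 length lowers the others.

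**Figure D1:**
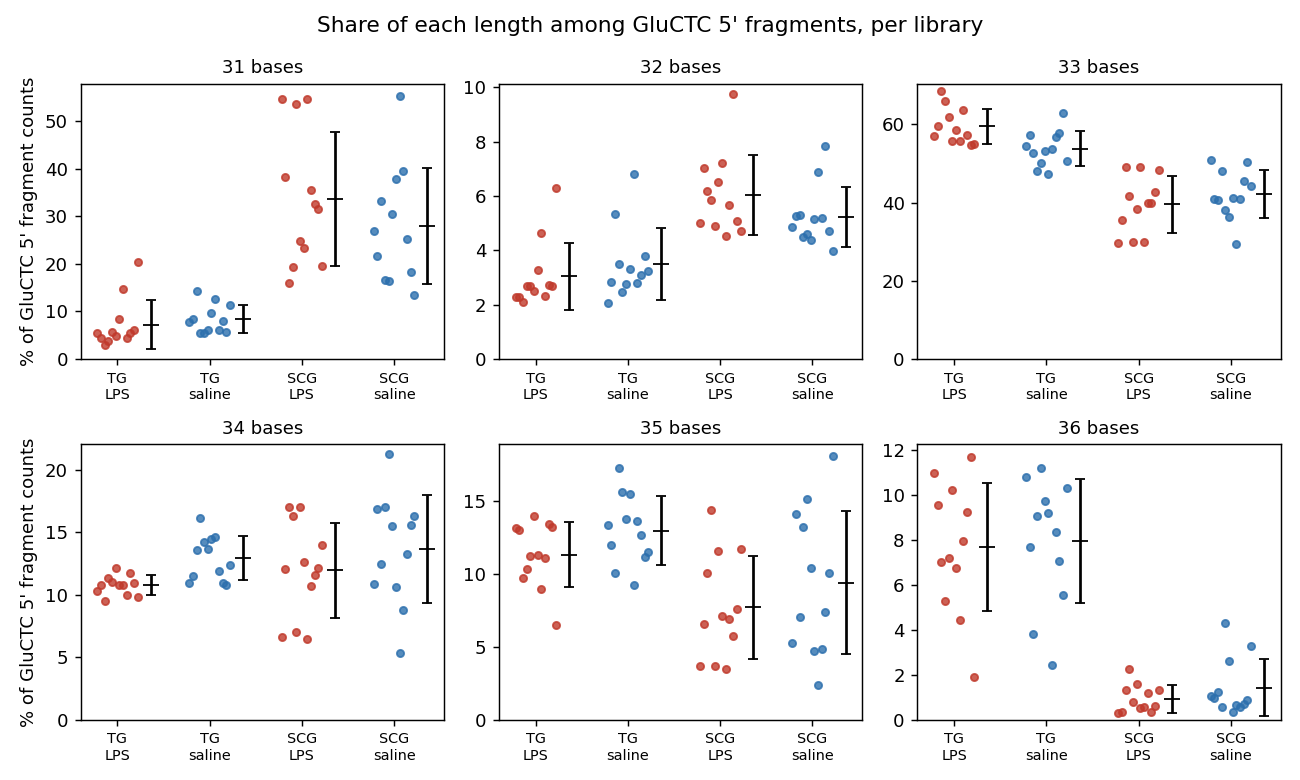
Share of each length among GluCTC 5' fragment counts (y axis, percent), 1 point per library and 12 libraries per column, with the mean and SD to the right of the points. The 31-base fragment takes 2.93% to 20.4% in TG and 13.5% to 55.2% in SCG, and the 36-base fragment 1.91% to 11.7% in TG and 0.282% to 4.28% in SCG.

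The ratio of 36-base to 31-base counts showed this within a library. It ran from 0.0936 to 2.41 (median 1.37) over 24 TG libraries, against 0.00517 to 0.261 (median 0.0335) over 24 SCG libraries. The low TG value was that of TG 7 d LPS replicate 4, and the high SCG value that of SCG 7 d saline replicate 1. SCG 7 d saline replicate 1 also had the highest sum of sensory-neuron miRNAs in its group, at 6801 CPM (group median 998). Whether that sum bears on the ratio was not tested.

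**Figure D2:**
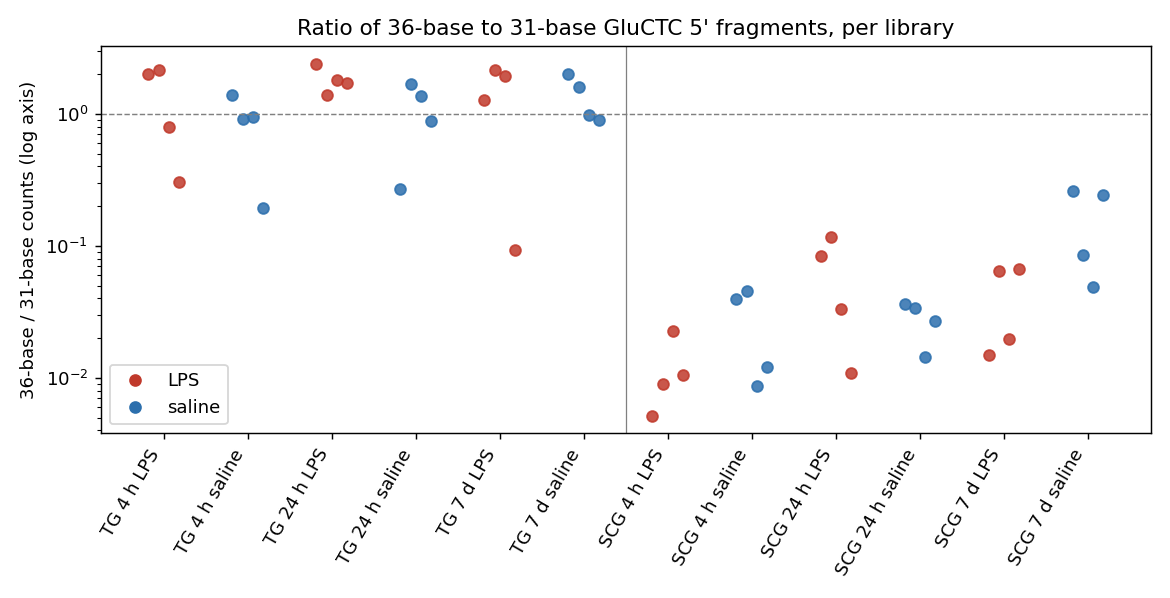
Ratio of 36-base to 31-base GluCTC 5' fragment counts (log axis) in each of the 4 libraries of the 12 groups, with TG left of the vertical line and a dashed line at equal counts. The TG values reach 2.41, no SCG value exceeds 0.261, and TG 7 d LPS replicate 4 lies at 0.0936.

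To compare levels between libraries, counts were divided by library size after TMM scaling (trimmed mean of M values, the edgeR method that holds most tRFs level between libraries) and are given as counts-per-million (CPM). Since TMM rescales the library sizes, the CPM of a library need not sum to the per-million base. On this scale the order of the 6 leading fragments by mean over all libraries was 33, 31, 34, 35, 32 and 36 bases. The 33-base 5'-half averaged 387537 ± 186585 CPM in TG and 367077 ± 161317 CPM in SCG after LPS, and 286058 ± 124452 CPM in TG and 357516 ± 179454 CPM in SCG after saline (SD, n = 12 each). Its libraries ran over 199369.6 to 841339 CPM in TG (median 352271), against 165812 to 790011 CPM in SCG (median 354283) after LPS, and over 157141 to 492586 CPM in TG (median 262404), against 197754 to 818069 CPM in SCG (median 295464) after saline, which overlap almost throughout.

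Summed over the 17 5'-halves, the 12 group means were as follows. In TG they were 424725 ± 203681 CPM after LPS and 413593 ± 203601 CPM after saline at 4 h, 588240.3 ± 142095 and 514098 ± 246574 CPM after LPS and after saline at 24 h, and 635463 ± 382579.7 and 389759.8 ± 73442 CPM after LPS and after saline at 7 d (SD, n = 4 each). In SCG they were 755372 ± 355257 CPM after LPS and 476293 ± 135408 CPM after saline at 4 h, 515260.0 ± 234507 and 706600.4 ± 496963 CPM after LPS and after saline at 24 h, and 537692 ± 100512 and 601364 ± 177631 CPM after LPS and after saline at 7 d. Neighbours in the order of these means do not differ beyond their SDs. Over all libraries the TG mean of this sum lay below that of SCG by TMM (log2 of TG over SCG -0.28) and by miRNA counts (-0.53), but above it by plain tRF totals (0.29).

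The 21 sequences of the 5'-tRF class behaved otherwise between ganglia. Their sum was 94544 ± 36142 CPM in TG after LPS and 88967 ± 40341 CPM in TG after saline, against 389663 ± 374616 and 240318 ± 111407 CPM in SCG after LPS and after saline (SD, n = 12 each). The 31-base fragment holds most of this class in SCG, and its highest library, SCG 4 h LPS replicate 1, reached 1448473 CPM.

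**Figure D3:**
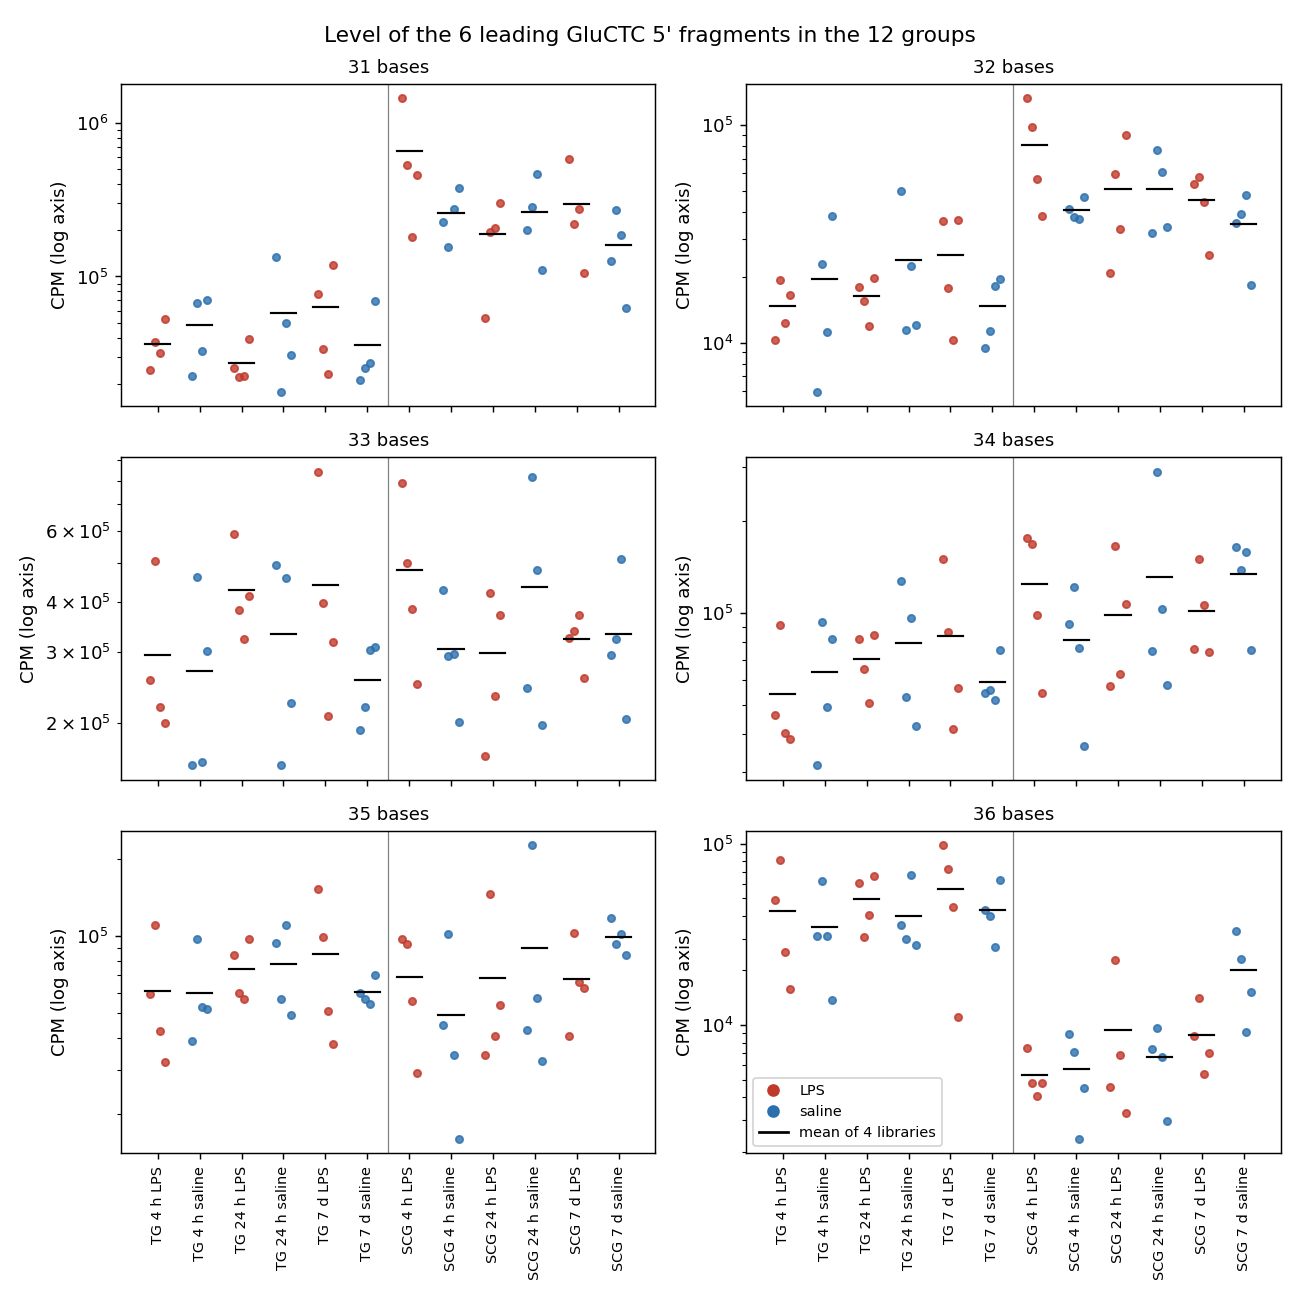
Level (CPM after TMM scaling, log axis) of the 6 leading GluCTC 5' fragments in the 12 groups, 1 point per library and a line at the mean of 4, with TG left of the vertical line and LPS left of saline at each time. The 31-base panel runs lower in TG than in SCG and the 36-base panel higher, while LPS and saline points of a time overlap in all 6 panels.

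TG and SCG were compared over all times, separately for LPS and for saline libraries, with the quasi-likelihood test of edgeR and Benjamini-Hochberg adjustment over all tRFs tested. After LPS 14 of the 38 GluCTC 5' fragments passed the count filter and 7 of them were called (adjusted p under 0.05), 3 higher and 4 lower in TG; of all 599 tRFs tested 50.3% were called, 26.7% higher and 23.5% lower. After saline 12 passed the filter and 5 were called, 2 higher and 3 lower in TG, where 42.7% of 571 tRFs were called, 20.8% higher and 21.9% lower. The split depends on the scaling. Plain tRF totals in place of TMM gave 7 higher and 2 lower in TG after LPS and 5 higher and 2 lower after saline. With these totals 269 of all 599 tRFs tested were called after LPS and 286 of 571 after saline. Library sizes from the miRNA counts gave 2 higher and 4 lower after LPS and 2 higher and 2 lower after saline. With those sizes 291 of all 599 tRFs were called after LPS and 230 of 571 after saline. With TMM the share of GluCTC 5' fragments called was near that of all tRFs, and the median log2 fold change was 0.15 after LPS and -0.06 after saline, beside -0.03 and -0.04 over all tRFs tested after LPS and after saline.

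The 31-base and 32-base fragments were lower in TG. After LPS the 31-base 5'-tRF ran from 22124 to 118178 CPM in TG (median 32624), against 53883 to 1448473 CPM in SCG (median 246395), and 10 of 12 TG libraries lay below every SCG library. Its log2 fold change of TG over SCG was -3.01 ± 0.41 (SE), adjusted p 9.42e-07. After saline it ran from 17799.5 to 133638 CPM in TG (median 31808), against 62699 to 462428 CPM in SCG (median 214064), with 8 of 12 TG libraries below every SCG library, and the log2 fold change was -2.33 ± 0.35 (SE), adjusted p 6.43e-06. With the plain tRF total in place of TMM, under which the median over all tRFs tested stood at 0.53 after LPS and 0.67 after saline in place of -0.03 and -0.04, the log2 fold change was -2.32 after LPS and -1.69 after saline, and with miRNA library sizes -3.37 and -2.40. The mean level was 42271 ± 28709 CPM in TG and 380077 ± 374434 CPM in SCG after LPS and 47379.6 ± 33619 CPM in TG and 227796 ± 114019.6 CPM in SCG after saline (SD, n = 12 each).

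The 32-base 5'-half, which ends on the first base of the anticodon loop, followed in the same direction with a smaller change. After LPS it ran from 10226 to 36446 CPM in TG (median 17242), against 20949 to 132982 CPM in SCG (median 54895), and 10 of 12 TG libraries lay below every SCG library. The log2 fold change was -1.61 ± 0.30 (SE), adjusted p 6.33e-05. After saline it ran from 5950.4 to 50002 CPM in TG (median 15118), against 18405 to 76759 CPM in SCG (median 38535), and the log2 fold change was -1.20 ± 0.30 (SE), adjusted p 0.00170.

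The 33-base and 35-base 5'-halves, which end right before and inside the anticodon, were not called. The 33-base 5'-half had a log2 difference of 0.06 ± 0.24 (SE), adjusted p 0.857, after LPS, and of -0.37 ± 0.27 (SE), adjusted p 0.291, after saline. The 35-base 5'-half had 0.10 ± 0.25 (SE), adjusted p 0.786, after LPS, and -0.18 ± 0.30 (SE), adjusted p 0.666, after saline. Their direction depends on the scaling: with the plain tRF total the 33-base and 35-base values were 0.61 and 0.60 after LPS and 0.31 and 0.50 after saline, and with miRNA library sizes -0.26 and -0.22 after LPS. The 34-base 5'-half was called, with -0.64 ± 0.23 (SE), adjusted p 0.0227, after LPS and -0.75 ± 0.28 (SE), adjusted p 0.0334, after saline, but its libraries overlapped: after LPS it ran from 38633 to 150162 CPM in TG (median 60980.2), against 54436 to 175759 CPM in SCG (median 102138). The 34-base call was lost when 1 library was left out in 3 of 24 fits after LPS and in 11 of 24 after saline, and with counts scaled by the plain tRF total (adjusted p 0.606 after LPS and 0.744 after saline). It was also lost without the filter on low counts (adjusted p 0.175 after LPS and 0.380 after saline), with miRNA library sizes after saline (adjusted p 0.0691) and without the sex term after LPS (adjusted p 0.0548).

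The 36-base and 37-base fragments were higher in TG. After LPS the 36-base 5'-tRF, which holds the whole anticodon, ran from 11066 to 97959.8 CPM in TG (median 46909), against 3284 to 22807 CPM in SCG (median 6106), and 10 of 12 TG libraries lay above every SCG library. The log2 fold change was 2.71 ± 0.30 (SE), adjusted p 3.69e-08. After saline it ran from 13753 to 67504 CPM in TG (median 33458), against 2362 to 33195 CPM in SCG (median 8162), with 6 of 12 TG libraries above every SCG library, and the log2 fold change was 2.13 ± 0.32 (SE), adjusted p 5.57e-06. With the plain tRF total it was 3.22 after LPS and 2.77 after saline. The mean level was 49684 ± 26892 CPM in TG and 7812 ± 5529 CPM in SCG after LPS, and 39268 ± 16702 CPM in TG and 10851 ± 9027 CPM in SCG after saline (SD, n = 12 each).

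The 37-base fragment, 1 base longer and counted 891 times in all, was higher as well. After LPS it ran from 16.4 to 226 CPM in TG (median 150.4), against 7.87 to 65.3 CPM in SCG (median 35.2), and 11 of 12 TG libraries lay above every SCG library, with a log2 difference of 2.07 ± 0.30 (SE), adjusted p 2.62e-06. After saline the libraries overlapped and the log2 fold change was 0.88 ± 0.29 (SE), adjusted p 0.0176. The 39-base fragment was called after LPS, at 0.87 ± 0.32 (SE), adjusted p 0.0249, and not after saline, at 0.63 ± 0.26 (SE), adjusted p 0.0563; whether these 2 values differ was not tested. The 39-base call after LPS was lost without the filter on low counts (adjusted p 0.0747), with miRNA library sizes (0.54, adjusted p 0.267), without SCG 7 d LPS replicate 1 (adjusted p 0.0507) and without SCG 24 h LPS replicate 4 (adjusted p 0.0509). The 46-base fragment was lower in TG after LPS, at -1.14 ± 0.40 (SE), adjusted p 0.0206, on a level of 19.8 CPM in TG and 36.3 CPM in SCG (medians of 12). Without SCG 24 h LPS replicate 3, its highest library at 226 CPM, that call was lost (adjusted p 0.112), and so it was with plain tRF totals (-0.56, adjusted p 0.323). The 46-base fragment passed the count filter in the SCG fits of LPS against saline, but not in the TG fits or in TG against SCG after saline. It may thus have entered the test after LPS through SCG, where it is higher, so no conclusion is drawn from this call.

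Among the fragments tested, those of 40 and 42 bases and the C-extended 5'-half had adjusted p of 0.282, 0.479 and 0.539 after LPS, and of 0.820, 0.645 and 0.704 after saline. Leaving out SCG 7 d LPS replicate 2 gave the same number of calls after LPS (3 higher, 4 lower), with -3.08 for the 31-base and 2.75 for the 36-base fragment. Leaving out SCG 4 h saline replicate 1 or SCG 24 h saline replicate 1 gave 2 higher and 3 lower after saline.

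Taken time by time, in a fit of all 48 libraries added after the data were seen, the 31-base fragment was lower in TG in each of the 6 comparisons. After LPS its log2 fold changes were -4.17 ± 0.70 (SE), adjusted p 1.87e-05, at 4 h, -2.80 ± 0.66 (SE), adjusted p 0.00167, at 24 h, and -2.23 ± 0.65 (SE), adjusted p 0.0110, at 7 d. After saline they were -2.42 ± 0.65 (SE), adjusted p 0.0110, at 4 h, -2.18 ± 0.64 (SE), adjusted p 0.0151, at 24 h, and -2.18 ± 0.65 (SE), adjusted p 0.0168, at 7 d. The 36-base fragment after LPS had 2.87 ± 0.53 (SE), adjusted p 7.62e-05, at 4 h, 2.63 ± 0.53 (SE), adjusted p 0.000275, at 24 h, and 2.59 ± 0.53 (SE), adjusted p 0.000323, at 7 d.

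After saline the 36-base fragment had 2.61 ± 0.53 (SE), adjusted p 0.000415, at 4 h, and 2.78 ± 0.53 (SE), adjusted p 0.000264, at 24 h, but 1.27 ± 0.51 (SE), adjusted p 0.0848, at 7 d, which missed the threshold. There the TG libraries had 43001, 39962, 26854 and 62726 CPM, against 33195, 23157, 9122 and 15229.9 CPM in the SCG libraries, and only the highest SCG library, replicate 1, exceeded the lowest of TG. The 32-base and 37-base fragments were not called at every time. The 32-base 5'-half was called lower in TG after LPS at 4 h and 24 h, with -2.46 ± 0.54 (SE), adjusted p 0.000542, and -1.65 ± 0.52 (SE), adjusted p 0.0165, but not at 7 d, with -0.83 ± 0.51 (SE), adjusted p 0.260. After saline it was called at none of the times, with -1.05 ± 0.51, -1.10 ± 0.51 and -1.25 ± 0.52 (SE) and adjusted p of 0.172, 0.152 and 0.102 at 4 h, 24 h and 7 d. The 37-base fragment after LPS had 1.91 ± 0.50, 2.32 ± 0.53 and 1.94 ± 0.51 (SE), with adjusted p of 0.00329, 0.00120 and 0.00588. After saline it was called at 24 h, with 1.75 ± 0.52 (SE), adjusted p 0.0162, and not at 4 h, with 1.02 ± 0.51 (SE), adjusted p 0.182, or 7 d, with 0.20 ± 0.48 (SE), adjusted p 0.852.

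Between 2 and 5 of the 14 fragments tested were called at each time and treatment, where 28.8%, 22.4% and 22.8% of 729 tRFs were called after LPS at 4 h, 24 h and 7 d, and 15.5%, 14.7% and 14.7% after saline.

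Other tRNAs showed values of the same sign at these lengths. The GluTTC 5' fragments, from the other glutamate tRNA, had -2.63 ± 0.48 (SE), adjusted p 7.15e-05, at 31 bases after LPS and -2.65 ± 0.42 (SE), adjusted p 1.33e-05, after saline. At 36 bases they had 2.33 ± 0.27 (SE), adjusted p 1.06e-07, after LPS and 2.12 ± 0.36 (SE), adjusted p 2.78e-05, after saline. The 34-base GluTTC 5'-half was lower in TG, at -2.36 ± 0.37 (SE), adjusted p 8.75e-06, after LPS.

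The lysine 5' fragments of 31 bases had -2.64 ± 0.39 (SE), adjusted p 3.87e-06, after LPS and -2.32 ± 0.33 (SE), adjusted p 2.61e-06, after saline. Those of 36 bases had 2.27 ± 0.31 (SE), adjusted p 9.00e-07, after LPS but 0.65 ± 0.61 (SE), adjusted p 0.418, after saline. For glycine, whose leading 5'-half is 31 bases long, the 30-base fragment had -2.54 ± 0.36 (SE), adjusted p 1.51e-06, after LPS, the 31-base 5'-half -1.34 ± 0.25 (SE), adjusted p 6.30e-05, and the 32-base 5'-half 2.07 ± 0.25 (SE), adjusted p 1.38e-07.

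Counted over every other 5'-half or 5'-tRF tested, all 19 of 19 sequences of 31 bases were called lower in TG after LPS and 15 of 16 after saline. Of the 36-base sequences, 13 of 13 were called higher in TG after LPS and 7 of 13 after saline. Sequences of 33 bases were mixed, with 10 higher and 4 lower of 23 after LPS. Of other short lengths after LPS, 4 of 7 sequences were called lower in TG at 28 bases and 11 of 15 at 30, but 1 of 9 at 29. At 32 bases 14 of 23 were lower and 6 higher. Of all tRFs tested, 26.7% were called higher and 23.5% lower after LPS, and 20.8% and 21.9% after saline. The lengths of 31 and 36 bases were singled out after their values were seen. Scaled by the plain tRF total, the TG mean of 1 of the 16 sequences of 31 bases was above the SCG mean after saline; scaled by miRNA counts, the TG mean of 3 of the 13 sequences of 36 bases was below it after saline, and with TMM that of 1.

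**Figure D4:**
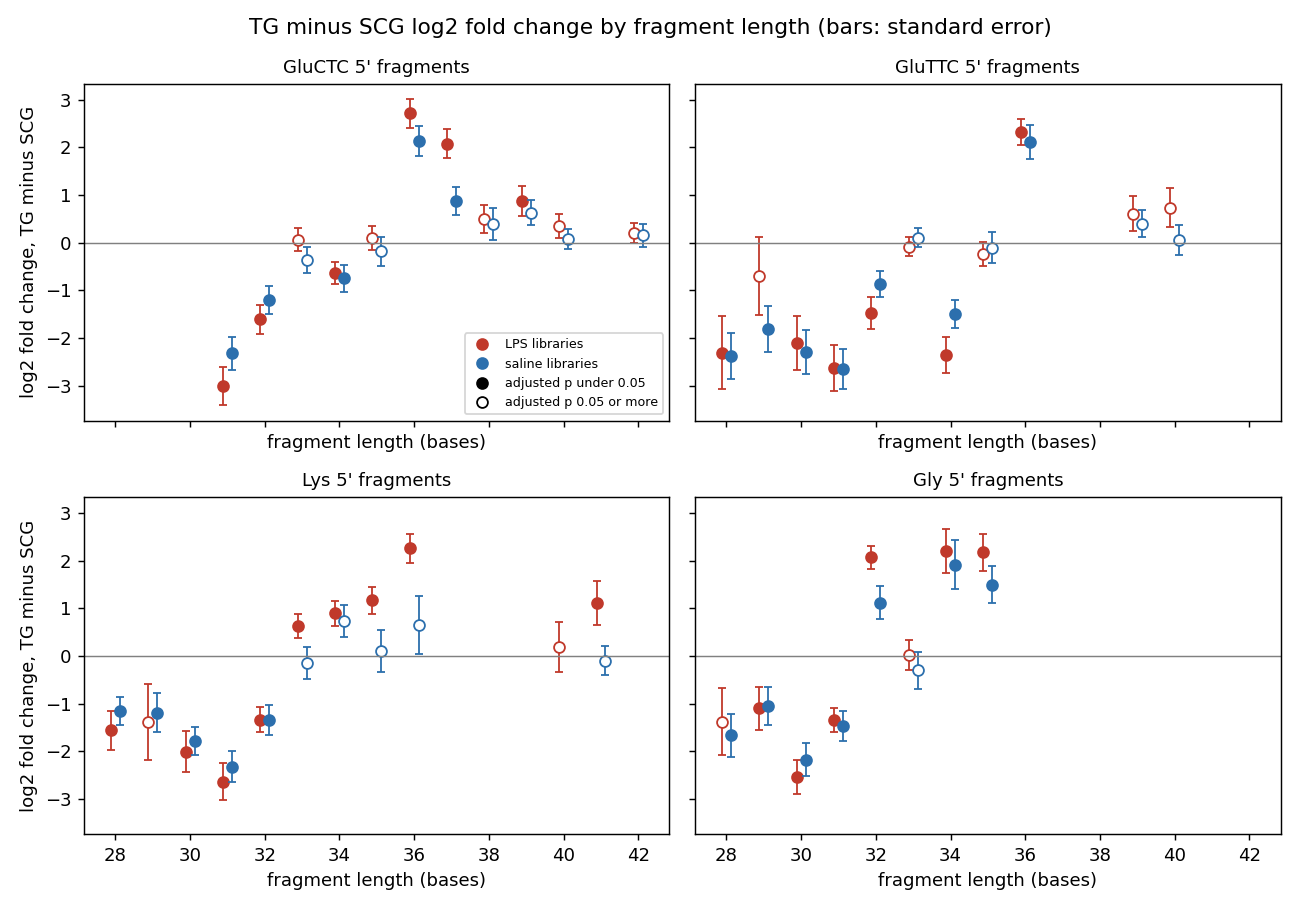
Log2 fold change of TG minus SCG (y axis, with standard error bars) by fragment length (x axis, bases) for the leading sequence of each length, after LPS and after saline; filled points have an adjusted p under 0.05. In the GluCTC panel the values run from -3.01 at 31 bases to 2.71 at 36 bases after LPS, and the GluTTC, lysine and glycine panels hold their lowest values at 31, 31 and 30 bases.

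GluCTC fragments that lack the first bases were tested in the same fits, and the 30 with the most counts were examined. Of these, 4 start at base 3, and all 4 were called higher in TG. Among all 48 GluCTC 3' and internal fragments tested after LPS, 12 were called higher and 3 lower in TG. After saline 6 were called higher and 4 lower of 43. The shares over all tRFs tested were 26.7% higher and 23.5% lower after LPS, and 20.8% and 21.9% after saline. After LPS the fragment from base 3 to base 36 had a log2 difference of 2.81 ± 0.31 (SE), adjusted p 3.67e-08, and those ending at bases 33, 34 and 35 had 1.99 ± 0.27, 1.93 ± 0.27 and 2.18 ± 0.27, with adjusted p of 1.20e-06, 1.59e-06 and 1.74e-07. The 5' fragments with these last 3 ends had 0.06, -0.64 and 0.10. After saline the fragments from base 3 had 0.84 ± 0.20, 0.94 ± 0.26, 1.23 ± 0.25 and 1.65 ± 0.29 at ends 33, 34, 35 and 36, all 4 called (adjusted p 0.00135, 0.00445, 0.000272 and 5.26e-05). The fragments from base 4 to bases 33, 34 and 35 were also called higher after LPS, at 1.18, 1.31 and 2.06. After saline only the one ending at base 35 was called, at 0.85. Those from base 2 to bases 33, 34 and 35 were not called, at 0.36, -0.21 and 0.06 after LPS.

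At the end on base 31, the fragment from base 2 was lower in TG, at -1.99 ± 0.37 (SE), adjusted p 5.80e-05, after LPS and -1.83 ± 0.43, adjusted p 0.00122, after saline. The fragment from base 16 to base 31 was not called, at -0.25 ± 0.19 (SE), adjusted p 0.308, after LPS and -0.25 ± 0.19, adjusted p 0.300, after saline. Those from bases 13, 14 and 15 to base 31 were not called after LPS, at -0.56, -0.33 and -0.38 (adjusted p 0.0778, 0.249 and 0.287). After saline those from bases 14 and 15 were called lower in TG, at -0.60 and -0.82 (adjusted p 0.0311 and 0.0199). The one from base 13 was not called after saline, at -0.53 (adjusted p 0.0833). These fragments were chosen after their values were seen. The GluTTC-annotated sequence nearest to the 33-base 5'-half differs from it by a single base and was counted 7257 times, 0.187% of the count of the 33-base 5'-half.

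LPS and saline libraries were compared within each ganglion and time, and no GluCTC 5' fragment was called in any of the 6 comparisons. In SCG 14 of 38 fragments passed the filter and in TG 12, and 0 of the 544 tRFs tested in SCG and 0 of the 559 in TG were called by edgeR (0% in each comparison). At an unadjusted p under 0.05 edgeR gave 0 GluCTC 5' fragments in SCG at 4 h, 1 at 24 h and 2 at 7 d, and 0, 1 and 0 in TG at 4 h, 24 h and 7 d. Over all tRFs tested, 38, 26 and 27 were under 0.05 unadjusted in SCG and 21, 45 and 38 in TG, in the same order of times. DESeq2 called 0 GluCTC 5' fragments in all 6, and 0 tRFs in 5 of them and 3 in TG at 7 d.

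The median log2 fold change over the fragments tested was 0.34, -0.02 and -0.54 in SCG at 4 h, 24 h and 7 d, where all tRFs tested had -0.05, 0.08 and 0.10. In TG it was 0.01, -0.07 and 0.36, where all tRFs tested had -0.03, -0.02 and 0.02. These medians depend on the scaling. With plain tRF totals they were -0.30 in SCG at 4 h and -0.13 in TG at 7 d. All tRFs tested then had -0.62 and -0.41. With miRNA library sizes the median in SCG at 7 d was -0.03, where all tRFs tested had 0.65.

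In SCG at 4 h the smallest p belonged to the 31-base fragment, at 1448473, 535295, 181402 and 457393 CPM in the LPS libraries, against 227389.7, 155071, 273399.9 and 375603 CPM in the saline libraries. LPS replicate 1 stands far above the rest, and the groups overlap. The log2 fold change was 1.09 ± 0.61 (SE), with an unadjusted edgeR p of 0.0863 and an adjusted p of 0.676; without that library it was 0.53. The 32-base 5'-half had 132982, 98588, 56420.2 and 38050.2 CPM in the LPS libraries, against 41208, 37931, 37201 and 46908 CPM in the saline libraries, and a log2 difference of 0.82 ± 0.46 (SE), adjusted p 0.679.

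In SCG at 24 h the 46-base fragment had 15.7, 19.99, 226 and 52.7 CPM in the LPS libraries, against 9.10, 5.47, 10.2 and 16.5 CPM in the saline libraries. These are 2 to 47 counts after LPS and 1 or 2 after saline, and the groups overlap by 1 library. The log2 fold change was 2.78 ± 0.85 (SE), adjusted p 0.852, and 1.54 without LPS replicate 3. The 43-base fragment had 47.2, 24.99, 38.5 and 21.95 CPM in the LPS libraries, against 13.6, 10.9, 15.3 and 16.5 CPM in the saline libraries, from 5 to 8 counts after LPS and 2 or 3 after saline, and 1.26 ± 0.63 (SE), adjusted p 0.943. It was the single fragment of the 14 whose LPS libraries all lay above every saline library, as did 1.84% of the 544 tRFs tested there. Elsewhere no fragment of the 14 separated fully in either direction. Among all tRFs tested, LPS libraries all lay above every saline library for 1.29%, 1.84% and 0.735% in SCG and 0.537%, 0.358% and 0.894% in TG at 4 h, 24 h and 7 d, and below for 0.735%, 1.47% and 0.368% in SCG and 1.43%, 1.43% and 2.15% in TG.

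In SCG at 7 d the 36-base fragment had 8688, 14095, 5365 and 6993 CPM in the LPS libraries, against 33195, 23157, 9122 and 15229.9 CPM in the saline libraries. Its LPS values ran lower, with overlap, and the log2 fold change was -1.24 ± 0.46 (SE), adjusted p 0.826. The 37-base fragment had 39.99, 25.3, 36.3 and 65.3 CPM in the LPS libraries, against 189, 84.6, 51.2 and 96.2 CPM in the saline libraries, with -1.44 ± 0.51 (SE), adjusted p 0.826. Without LPS replicate 2, which stood apart in miR-142a-3p, the log2 fold changes were -1.44 and -1.26 for the 36-base and 37-base fragments.

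In TG at 4 h the smallest p were those of the 37-base fragment, with 153, 189, 133 and 77.99 CPM in the LPS libraries, against 91.3, 115, 117 and 50.2 CPM in the saline libraries, and the 38-base fragment, with 28.7, 57.6, 93.6 and 109 CPM in the LPS libraries, against 24.9, 93.4, 40.7 and 50.2 CPM in the saline libraries. Both sets of libraries overlap, and the log2 fold changes were 0.54 ± 0.48 (SE), adjusted p 0.964, and 0.50 ± 0.51 (SE), adjusted p 0.964. In TG at 24 h the 31-base fragment had 25197, 22124, 22574 and 38885 CPM in the LPS libraries, against 133638, 17799.5, 49534 and 30962 CPM in the saline libraries. Saline replicate 1 alone lies far above the rest, and the log2 fold change was -1.20 ± 0.58 (SE), with an unadjusted edgeR p of 0.0482 and an adjusted p of 0.607; without that library it was -0.14. The 40-base fragment had 247, 103, 176 and 188 CPM in the LPS libraries, against 130.5, 192, 102 and 71.5 CPM in the saline libraries, and 0.55 ± 0.38 (SE), adjusted p 0.656.

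In TG at 7 d the C-extended 33-base 5'-half had 169, 62.4, 59.4 and 70.9 CPM in the LPS libraries, against 19.04, 52.1, 76.6 and 18.1 CPM in the saline libraries, which overlap, and a log2 difference of 1.09 ± 0.55 (SE), adjusted p 0.732. The 32-base 5'-half had 36429.8, 17881, 10296 and 36446 CPM in the LPS libraries, against 9404, 11319.6, 18244 and 19638 CPM in the saline libraries, and 0.79 ± 0.53 (SE), adjusted p 0.874.

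The leading 33-base 5'-half gives the plainest view of the spread. In TG it had 255686, 503994, 219697 and 199369.6 CPM in the LPS libraries, against 157141, 462060.1, 159713 and 300999.9 CPM in the saline libraries at 4 h. At 24 h it had 589338, 380837, 323705 and 413405 CPM in the LPS libraries, against 492586, 157462, 457254 and 223807 CPM in the saline libraries, and at 7 d 841339, 396838, 208645 and 317585 CPM in the LPS libraries, against 191877, 218514, 302879 and 308407 CPM in the saline libraries. In each of these the LPS and saline ranges overlap.

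In SCG the 33-base 5'-half had 790011, 499238, 383548 and 249858 CPM in the LPS libraries, against 428679.6, 292996, 296742 and 200549.8 CPM in the saline libraries at 4 h. At 24 h it had 165812, 421593, 232966 and 370082 CPM in the LPS libraries, against 244805, 818069, 478596 and 197754 CPM in the saline libraries, and at 7 d 324999.8, 338684, 369882 and 258245 CPM in the LPS libraries, against 294186, 323463, 509677 and 204675 CPM in the saline libraries. Here too the ranges overlap, and replicates of 1 group differed by up to 818069 against 197754 CPM in SCG 24 h saline.

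The LPS effect in TG was set against that in SCG at each time in the fit of all 48 libraries. None of the 14 GluCTC 5' fragments tested was called, and 0 of 729 tRFs were (0%), by edgeR and by DESeq2 alike; at an unadjusted p under 0.05 edgeR gave 0, 0 and 1 of the fragments at 4 h, 24 h and 7 d, beside 31, 35 and 29 of the 729 tRFs. The smallest p were those of the 31-base fragment at 4 h, with a difference of -1.76 ± 0.88 (SE), adjusted p 0.985, of the 46-base fragment at 24 h, with -2.13 ± 1.11 (SE), adjusted p 0.855, and of the 37-base fragment at 7 d, with 1.74 ± 0.70 (SE), adjusted p 0.981 (log2, LPS over saline in TG minus the same in SCG). Single libraries carried much of the first and second of these: without SCG 4 h LPS replicate 1 the 31-base value at 4 h was -1.04, and without SCG 24 h LPS replicate 3 the 46-base value at 24 h was -0.86. Next to them stood the 32-base 5'-half at 4 h, with -1.41 ± 0.72 (SE), adjusted p 0.985, the 33-base 5'-half at 24 h, with 0.83 ± 0.64 (SE), adjusted p 0.892, and the 36-base fragment at 7 d, with 1.32 ± 0.71 (SE), adjusted p 0.981. Without TG 4 h saline replicate 4 the 32-base value was -0.79, and without SCG 24 h saline replicate 2 the 33-base value was 0.45.

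Against the miRNA counts of the same library, GluCTC 5' fragments stood at 38842 ± 22135 (per-million scale of miRNA counts) in TG after LPS and 29311 ± 16681 after saline, and at 81299 ± 72649 in SCG after LPS and 50849 ± 21869 after saline (SD, n = 12 each). This ratio moves with both kinds of RNA. Its highest library was SCG 4 h LPS replicate 1, at 278277, and its lowest TG 4 h saline replicate 1, at 10599.

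The other 24 fragments did not pass the count filter in any comparison and are given by their counts. They had 10 to 242 counts over 48 libraries. At the minimum, the member with the fewest counts was a 36-base 5'-half with an extra base, with 10 counts in 6 libraries. Just outside it, the candidates with the most counts had 7, and the 22 sequences below the minimum held 75 counts together.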

How the data were processed

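Small RNA was sequenced from 48 ganglion libraries (140 ng total RNA each, mean RIN 8.3, range 6.4 to 9.3) made with the NEBNext Multiplex Small RNA kit from 2 of every 4 samples of a subgroup, per the labels' protocols. The authors deposited raw counts per tRF and per miRNA. FastQC 0.11.9 and GRCm39 are named in the submitters' processing notes; the aligner is not given in the sources used here, nor is the counter, and the tRF annotation carries human locations. Molecular identifiers are not mentioned, so intervals cover counting error alone.

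Tests ran in R 4.3.3 with edgeR 4.0.16 (limma 3.58.1) on all tRFs, keeping those that passed filterByExpr (minimum count 10), with TMM scaling, a sex term and an adjusted p threshold of 0.05. The LPS contrasts used the 24 libraries of a ganglion, TG against SCG the 24 of a treatment, and interactions all 48. DESeq2 1.42.0, no filter, plain totals, miRNA library sizes, no sex term and left-out libraries were alternatives. An edgeR fit of each kind was run on simulated data with large planted changes. Its outcome is not given here, and smaller changes were not simulated. Of 72 replicate pairs 0 were identical, and the lowest chi-square per degree of freedom was 3.75. The labels take at most 1 library of each ganglion from a mouse and give no litter, cage or batch, so p-values measure the spread between these samples.

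Named fragments were the 10 with the highest mean CPM, the top 3 5'-halves and 5'-tRFs, up to 5 called per direction, the 2 with the smallest p where none was called, and those next to the count minimum. The 33-base and 35-base 5'-halves in TG against SCG follow from their rank. The sequences of the fragments are not reported here. Members and lists were chosen with earlier results of these data known.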

Additional observations from a re-analysis of the deposited data

Results flagged for a closer look

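In 5 of 84 sets of 4 libraries 1 stood apart from the other 3, by Dixon's test at the 95% level, and chance flags about 1 in 20 groups. The 31-base 5'-tRF stood at 69656 CPM in TG 7 d saline replicate 4, where the other 3 libraries lay between 21325 and 27423 CPM. The 34-base 5'-half stood at 91316 CPM in TG 4 h LPS replicate 2, with the others between 38633 and 46254 CPM, and at 75531 CPM in TG 7 d saline replicate 4, with the others between 51865 and 55879 CPM. The 35-base 5'-half stood at 226164 CPM in SCG 24 h saline replicate 2, with the others between 32347 and 57101 CPM. The share of tRF counts held by GluCTC 5' fragments was 48.97% in SCG 4 h LPS replicate 4, with the others between 71.01% and 75.3%. What sets these libraries apart was not tested.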

How the results depend on the processing

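No paired analysis was possible because the labels give no replicate numbers that groups share, the replicate numbers here follow accession order, and no label ties a TG library to the SCG library of the same mouse. The LPS comparisons gave 0 called GluCTC 5' fragments under every setting and every left-out library. Leaving out 1 library gave 6 to 7 calls in TG against SCG after LPS and 4 to 6 after saline. Without the filter on low counts 11 were called after LPS (3 higher, 8 lower, of 38 tested), as were 476 of all 9955 tRFs. The calls lost at 34, 39 and 46 bases stand beside those results. Time by time, in fits added after the data were seen, saline gave 2 at 4 h, 3 at 24 h and 2 at 7 d, and LPS gave 3 at 7 d. The 33-base 5'-half turned to 0.31 after saline with plain tRF totals. After LPS it turned to -0.26 with miRNA library sizes and -0.70 at 4 h alone, and leaving out 1 library gave -0.065 to 0.16. The 35-base 5'-half turned after saline to 0.50 with plain totals and 0.42 at 4 h alone, and ran over -0.32 to 0.0075 with 1 library left out. After LPS it turned to -0.22 with miRNA library sizes and -0.17 at 4 h alone, and ran over -0.029 to 0.22. Plain totals also brought the 33-base and 35-base 5'-halves past the threshold after LPS, at 0.61 and 0.60; the cause was not tested. Of the values of single fragments under all alternatives, 775 kept direction and side of the threshold, 43 fell short of it, 2 passed it and 12 reversed. Depth limits the longer fragments: the 37-base one had 1 to 71 counts per library and the 46-base one at most 47.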
